A study of Mus musculus with 32 samples.

Results

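Splenic B cells that lack the DNA damage kinase ATM were stimulated through their antigen receptor for 3 h, and their RNA was compared with that of untreated cells of the same kind. The stimulated cells were measured on 1 array and the untreated cells on 3 arrays, which makes 4 of the 32 arrays in the series. The arrays were picked by their labels, with earlier results of these data known. Stimulated cells received 15 ug/ml goat anti-mouse IgM in vitro, an antibody that crosslinks the IgM form of the B cell receptor. They came from spleens of ATMKO.CD3epsilonKO mice, as did the untreated cells. All groups therefore also lacked CD3 epsilon, a subunit of the T cell receptor, so the untreated cells are not wild type. Cells of the same genotype after 6 h (2 arrays) and 24 h (1 array) of anti-IgM were used for comparison over time. ATMWT.CD3epsilonKO splenic B cells, which keep ATM, were measured on 1 array after 6 h and on 1 array untreated. The wider study profiled lymphoma lines from these mice, germinal centre B cells, and lines treated with a BTK inhibitor. Each array held a sample labelled with Cy5 and a common RNA pool labelled with Cy3, with no dye swap. A level here is the log2 ratio of the sample to that pool for 1 gene, and a difference is the level at 3 h minus the mean level of the 3 untreated arrays.

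Antigen receptor crosslinking lets the kinases LYN and SYK act at the CD79A and CD79B tails, and BTK is then drawn to the membrane. These kinases open the calcium and NFAT, RAS and ERK, PI3K and NF-kappaB branches of the response. Immediate early genes, such as those of the FOS, JUN, EGR and NR4A families, are transcribed within minutes without new protein synthesis and usually decline within hours. Chemokine and cytokine genes, then genes of ribosome and lipid synthesis, follow as a B cell prepares to grow.

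The series text calls the repeats of 1 group technical, so no spread between mice or cultures exists for any group here. The number of arrays limits the precision, and the differences below are set against the spread of the untreated arrays. That spread was small for most genes, with a median SD of 0.102 and a 90th percentile of 0.240 (log2, n = 3). The 3 untreated arrays were not equally close. Untreated repeat 1, which shared a slide with the 3 h array, correlated at r = 0.758 and 0.768 across genes with repeats 2 and 3, which correlated at 0.969 with each other. Between repeats 1 and 2, 385 of 22297 genes were at least 2-fold apart, against 16 between repeats 2 and 3. Calls that rest on repeat 1 are named after the call rule. Replicate spots scattered more on the 3 h array, with a coefficient of variation of 10.3% in Cy5, than on the 8 other splenic B cell arrays (4.02% to 7.78%). Its part in the differences was not tested. All 15 B cell markers measured were above background at 3 h and in untreated cells. Their mean level was -0.40 at 3 h, against 0.47 to 0.51 on the untreated arrays. In bulk RNA, fewer cells of a type and less of its RNA per cell cannot be told apart.

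The deleted genes were checked first. Atm had a level of -0.98 at 3 h, against -0.24, -0.41 and -0.36 in untreated ATMKO cells, and the ATMWT arrays read 0.63 after 6 h and 0.42 untreated. All ATMKO arrays lay below both ATMWT arrays, as the labels say. Cd3e read 0.48 at 3 h, against 0.59, 0.93 and 0.84 in untreated ATMKO cells. It was above background on every array. The position of either probe relative to the deletion was not tested.

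A gene was called higher at 3 h when it was at least 2-fold above the untreated mean, above all 3 untreated arrays and above background at 3 h. It was called lower by the mirror rule, with all 3 untreated arrays above background. By that rule 467 of 22297 genes (2.09%) were higher and 1591 (7.14%) lower. Of all calls, 22.7% were thus higher. That split depends on the scaling: it was 3.31% when arrays were centred on their median in place of loess, and 35.3% with the deposited log ratios. The median difference of all genes was -0.10, and -0.39 after median centring, so differences are read against that shift. A further rule asked for 4-fold, which 39 genes passed upward and 103 downward. Genes called higher had a median difference of 1.26 at 3 h, and their later medians were 0.09 at 6 h and -0.10 at 24 h. Genes called lower had -1.26 at 3 h, -0.52 at 6 h and -0.08 at 24 h. These later values share the untreated arrays with the 3 h values. Without untreated repeat 1, 9 of the 170 named calls are lost. The lower ones are Bag3, Derl3, Gcsam, Klra8, Ltb and Siglec1, with differences of -0.998 to -0.534 without it. The higher ones are Ctps, Il7r and Stat3, with 0.965 to 0.995. The limma test over 6 splenic B cell samples, with technical repeats averaged and 1 residual degree of freedom, called 4141 genes (18.6%) at an adjusted p of 0.05, 1171 higher and 2970 lower. The 3 h sample is alone in its group in this test and is assumed to vary like the others. With the deposited log ratios the same limma test called 0 genes, with 7130 at an unadjusted p under 0.05.

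**Figure D1:**
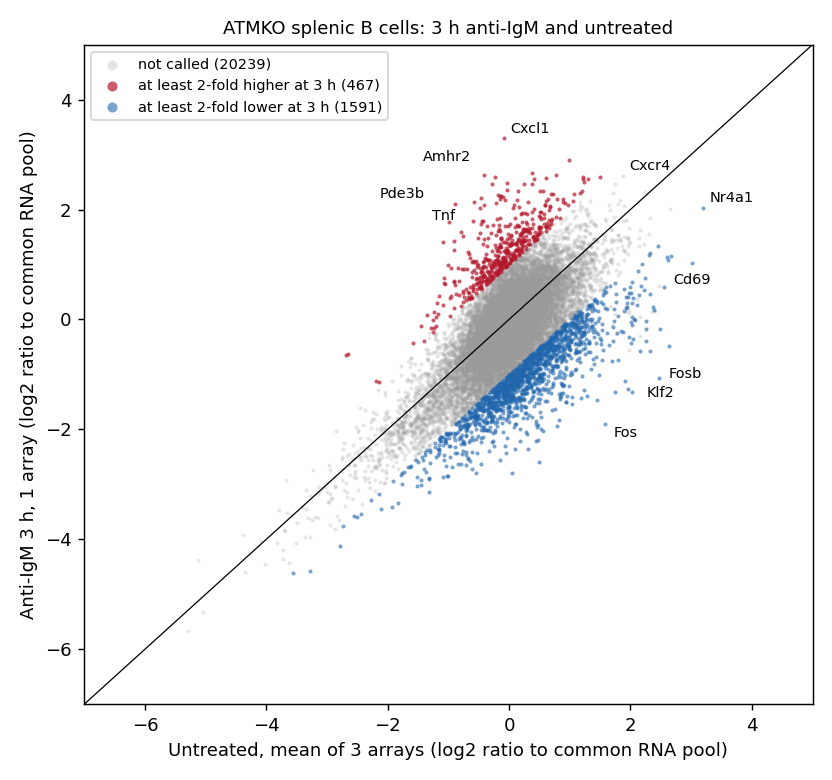
Level of each of 22297 genes at 3 h of anti-IgM (vertical, 1 array) against untreated ATMKO splenic B cells (horizontal, mean of 3 arrays), both as log2 ratios to the common pool. Red points are the 467 genes called higher and blue points the 1591 called lower, and Fos and Fosb lie far below the diagonal while Cxcl1 lies farthest above it.

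Several genes of secreted inflammatory signals were higher at 3 h. Cxcl1 and Cxcl2, chemokines that attract neutrophils through CXCR2, were not on the cytokine list. Cxcl1 had the largest difference upward, and Cxcl2 was among the 10 clearest peaks at 3 h. Of 24 cytokine and chemokine genes measured on the list, 7 were called higher and 2 lower, against 2.09% and 7.14% of all genes. The median difference of the list was 0.21. After median centring that median was -0.13, with 6 genes higher and 3 lower, while the median of all genes was -0.39. The 9 secreted genes called higher spanned differences of 1.01 to 3.38.

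Upstream sequence is shown for 5 of them because their promoters hold a kappaB-like motif. RefSeq promoters (250 bases before to 50 after the start site, GRCm38.p6) were at hand for 7 of the 9 genes. The motif GGGANNTTC was searched on both strands and found in 5 of the 7. Capitals mark the matches, and in Cxcl1 and Cxcl2 a match on each strand overlaps the other.
Cxcl1 (chr5:90890995-90891294, + strand): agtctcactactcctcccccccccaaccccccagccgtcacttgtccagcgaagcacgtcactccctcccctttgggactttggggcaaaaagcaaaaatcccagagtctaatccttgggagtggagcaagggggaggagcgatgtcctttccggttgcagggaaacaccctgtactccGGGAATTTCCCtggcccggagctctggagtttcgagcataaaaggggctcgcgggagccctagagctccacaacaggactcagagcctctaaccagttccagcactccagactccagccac
Cxcl2 (chr5:90903649-90903948, + strand): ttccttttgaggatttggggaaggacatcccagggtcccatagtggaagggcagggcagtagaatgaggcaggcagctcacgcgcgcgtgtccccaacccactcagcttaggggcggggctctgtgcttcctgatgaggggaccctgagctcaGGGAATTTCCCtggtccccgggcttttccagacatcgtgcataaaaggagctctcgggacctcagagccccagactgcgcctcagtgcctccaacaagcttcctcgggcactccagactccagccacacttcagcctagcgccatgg
Il6 (chr5:30012864-30013163, + strand): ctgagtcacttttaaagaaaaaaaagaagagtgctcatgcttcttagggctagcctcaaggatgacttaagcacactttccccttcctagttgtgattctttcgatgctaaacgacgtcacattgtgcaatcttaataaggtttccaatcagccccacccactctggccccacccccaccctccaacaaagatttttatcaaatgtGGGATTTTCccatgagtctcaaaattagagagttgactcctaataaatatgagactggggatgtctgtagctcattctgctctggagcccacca
Cxcl10 (chr5:92348840-92349139, - strand): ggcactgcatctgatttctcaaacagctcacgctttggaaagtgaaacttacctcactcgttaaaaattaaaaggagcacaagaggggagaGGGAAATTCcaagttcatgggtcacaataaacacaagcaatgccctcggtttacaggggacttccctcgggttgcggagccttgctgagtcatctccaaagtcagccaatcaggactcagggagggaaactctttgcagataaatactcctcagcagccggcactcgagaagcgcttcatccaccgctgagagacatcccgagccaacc
Tnf (chr17:35201958-35202257, - strand): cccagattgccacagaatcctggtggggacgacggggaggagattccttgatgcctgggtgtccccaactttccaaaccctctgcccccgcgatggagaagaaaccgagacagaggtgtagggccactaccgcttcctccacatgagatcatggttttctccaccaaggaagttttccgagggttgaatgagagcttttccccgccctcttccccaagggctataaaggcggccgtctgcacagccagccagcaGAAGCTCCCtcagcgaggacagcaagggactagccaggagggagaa
Counted from the start site, the first matching base was at -71 in Cxcl1, -97 in Cxcl2, -44 in Il6 and -159 in Cxcl10, and past the start site, at 5, in Tnf. Among all 32851 promoters 3.94% held the motif, as did 4.72% of the 381 promoters of genes called higher and 3.86% of the 1322 of genes called lower. The cyclic AMP element TGACGTCA was in 0 of the 7 promoters in 3.15% of those of genes called higher and in 1.79% of all. The AP-1-like TGANTCA was in 3 of the 7, in 8.4% of those of genes called higher and in 7.81% of all. None of these shares was tested. A match describes letters and does not show a binding site, and the genes and the motifs were picked after their values were seen.

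Cxcl1 had a level of 3.30 at 3 h, against -0.04, -0.20 and 0.01 in untreated cells. The difference was 3.38, a 10.4-fold higher level, where the untreated SD was 0.11 (n = 3). That rank is among genes matched to RefSeq, and the level was back at -0.34 and -0.56 at 6 h and -0.57 at 24 h. Cxcl2 read 2.55 at 3 h, against 0.28, 0.40 and 0.54 untreated, a difference of 2.15. The call is lost without background correction, with a difference of 1.21, and with the deposited log ratios, with 1.76. It too was below the untreated arrays later, with -0.12 on both 6 h arrays and -0.20 at 24 h. Ccl3, which draws monocytes and T cells, read 2.47 at 3 h, against 0.27, 0.23 and 0.23 untreated. Its relative Ccl4 read 2.57, against 0.55, 0.65 and 0.64. Unlike Cxcl1, both chemokines were still above untreated cells at 6 h (1.01 and 1.04 for Ccl3, 1.13 and 1.31 for Ccl4) and below them at 24 h. Tnf, the tumour necrosis factor gene and a classic NF-kappaB and NFAT target, read 1.71 at 3 h, against -0.30, -0.39 and -0.41 untreated. Il6, which drives plasma cell differentiation, read 2.35, against 0.28, 0.57 and 0.70. Cxcl10, an interferon-induced T cell attractant, read 2.62, against 0.49, 1.00 and 0.84. In each of these 3 genes the 3 h array was more than 2-fold above the highest untreated array.

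The anti-inflammatory Il10 was also higher, at 0.13 against -1.08, -1.32 and -1.29, a difference of 1.36. Il1a met the rule narrowly, with a difference of 1.01 that was 0.96 against untreated repeat 1 alone. Other members were lower. Ltb, a lymphotoxin subunit needed for follicle structure, had a difference of -1.08, and Ifng one of -1.23. The call on Ltb is lost without untreated repeat 1. For all 9 secreted genes called higher, the ATMWT untreated array read below the 3 untreated ATMKO arrays, for example -3.12 for Il10, -1.34 for Cxcl10 and -1.21 for Tnf. The untreated ATMWT and ATMKO arrays were on different slides, so genotype and slide cannot be told apart here.

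**Figure D2:**
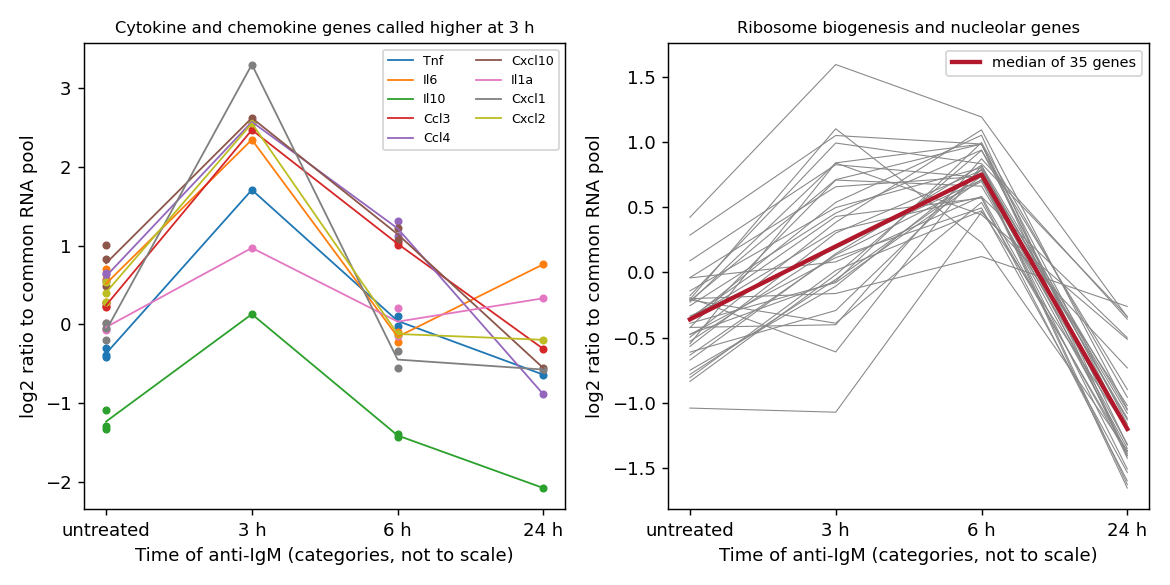
Levels (log2 ratio to the common pool) in ATMKO splenic B cells untreated and after 3, 6 and 24 h of anti-IgM, with the times as evenly spaced categories. On the left, points are arrays and lines join group means for the 9 secreted genes called higher at 3 h, each highest at 3 h. On the right, grey lines are the group means of 35 ribosome biogenesis and nucleolar genes and the red line is their median, which is highest at 6 h and lowest at 24 h.

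The other 11 of the 12 leading RefSeq genes had varied roles. Pde3b, a phosphodiesterase that breaks down cyclic AMP, read 2.11 at 3 h, against -1.08, -0.70 and -0.89 untreated, a difference of 2.99. Phlpp1, a phosphatase that removes an activating phosphate from AKT, read 1.77, against -0.83, -1.12 and -1.05. Both stayed above untreated cells later, with differences of 1.07 and 1.55 at 6 h. Ppp1r16b, a regulatory subunit of protein phosphatase 1, read 2.59, against -0.32, -0.18 and -0.19. In contrast to Pde3b it was below untreated cells at 6 h (-0.98 and -0.86). Acod1, which makes the antimicrobial metabolite itaconate in activated macrophages, read 2.22, against -0.43, -0.49 and -0.47, and stayed at 1.13 and 1.14 at 6 h and 1.22 at 24 h. Gpr84, a receptor for medium-chain fatty acids found on myeloid cells, read 1.80, against -0.66, -0.57 and -0.57, and 1.44 at 24 h. The untreated ATMWT array read -3.01 for Acod1 and -1.45 for Gpr84, lower than any ATMKO array.

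Because Acod1, Gpr84, Cxcl1 and Cxcl2 are also made by myeloid cells, marker genes of other blood cells are given beside them. Of 22 macrophage and dendritic cell markers, 0 were higher and 4 (18.2%) lower, against 7.14% of all genes, with a median difference of -0.44. Above background were 20 of these at 3 h and all 22 on the untreated arrays. Their summed Cy5 signal was 17.2 at 3 h (log2), against 17.3 to 17.8 untreated. Summed signals here were rebuilt after loess and quantile normalisation of brightness between arrays, so they are not raw amounts. Of 16 neutrophil markers none was called, with a median difference of -0.04. Their summed signal was 19.4 at 3 h, against 19.1 to 19.2 untreated. Both lists were thus measurable in these B cell samples, and their part in the higher genes was not tested. Of 18 T cell markers 0 were higher and 1 lower, of 14 NK cell markers 1 and 2, of 21 erythroid and platelet markers 0 and 2, and of 13 stromal markers 0 and 0. Their summed signals were 17.0 at 3 h against 17.0 to 17.1 untreated for T cell markers, 18.7 against 19.0 to 19.1 for erythroid markers, and 12.9 against 13.3 to 13.6 for stromal markers.

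Amhr2, the receptor of anti-Mullerian hormone, was second among the higher genes at 2.63, against -0.33, -0.34 and -0.57 untreated. Trim69, Tatdn2, Cables1, Chst7 and the predicted gene Gm16062 completed the 12 leading RefSeq genes, with differences of 2.39 to 2.71. All 12 kept a difference of more than 2 when set against untreated repeat 1 alone, the array on the same slide. Rasgrp4, a RAS exchange factor, had a difference of 2.23 by its brightest probe, but another probe of the gene read -0.84, so its direction is uncertain.

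**Figure D3:**
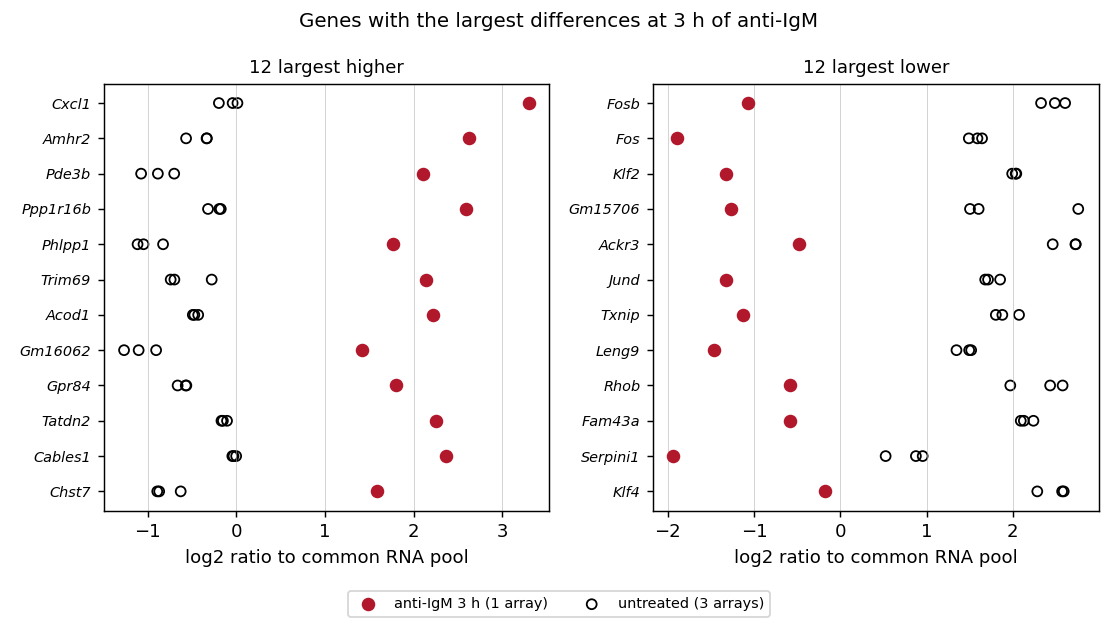
Levels (log2 ratio to the common pool) of the 12 RefSeq-matched genes with the largest differences upward (left) and downward (right). Filled red points are the 3 h array and open points the 3 untreated arrays, which the 3 h array clears for every gene shown.

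Genes of NF-kappaB feedback were mostly above untreated cells, by small amounts. Of 22 subunits and inhibitors measured, 2 (9.09%) were called higher and 0 lower, against 2.09% and 7.14% of all genes. The median difference was 0.23, and 14 (63.6%) lay above all 3 untreated arrays, against 30.6% of all genes. After median centring the list had 1 higher and 1 lower call and a median of -0.23, still above the -0.39 of all genes. The count of higher calls is 1 without untreated repeat 2 or without repeat 3, where N4bp1 (1.00) falls below the rule. Tnip3, an inhibitor of NF-kappaB signalling, read 0.31 at 3 h, against -0.64, -1.47 and -1.44 untreated. Its difference was 1.49, but 0.95 against repeat 1 alone and 0.87 without background correction, and either setting ends the call. Nfkb1, the p105 and p50 subunit, read 0.91, against 0.11, -0.01 and 0.07, a difference of 0.85 that missed the rule. Bcl3, a nuclear partner of p50, had a difference of 0.87.

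Among 34 proximal receptor signalling genes, 3 (8.82%) were called higher and 2 (5.88%) lower, against 2.09% and 7.14% of all genes. The median difference was -0.23. After median centring 1 was higher and 9 lower, with a median of -0.50, against -0.39 for all genes. When arrays were scaled to a common spread, 1 was higher and 1 lower. Fyn, a SRC family kinase, read 1.18 at 3 h, against -0.24, -0.52 and -0.38 untreated. Cblb, a ubiquitin ligase that limits receptor signalling, read 1.51, against 0.24, 0.15 and 0.30. Pik3cd, the lymphocyte catalytic subunit of PI3K, read 1.04, against -0.09, -0.17 and -0.11. The gene of the receptor itself went the other way: Cd79a read -0.63, against 0.75, 1.04 and 1.04. In the PI3K branch, Pik3ip1, an inhibitor of PI3K, had a difference of 1.77, and Inpp5d, the phosphatase SHIP1, one of 1.19. The calls on Cblb, Pik3cd and Inpp5d are lost after median centring (0.74, 0.71 and 0.95) and under that scaling (0.85, 0.89 and 0.77).

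In the calcium branch 1 of 24 genes (4.17%) was higher and 2 (8.33%) lower, against 2.09% and 7.14% of all genes. Nfatc3 read 1.48 at 3 h, against -0.23, -0.02 and -0.14 untreated, while its relative Nfatc2 read -1.79, against 0.18, 0.37 and 0.34. These transcription factor genes of 1 family thus lay on opposite sides of the untreated range. Of 21 coreceptors and inhibitory receptors, 1 (4.76%) was higher, Inpp5d, and 5 (23.8%) lower, with a median of -0.39. Cr2 and Cd81, subunits of the B cell coreceptor, had differences of -1.64 and -1.71, and Ptpn6, the inhibitory phosphatase SHP-1, one of -1.81. Of 29 activation surface genes 3 (10.3%) were higher and 4 (13.8%) lower. Cd274, which encodes PD-L1, read 2.55 at 3 h, against 1.39, 1.26 and 1.25 untreated, and Pdcd1lg2, which encodes PD-L2, read 2.55, against 1.05, 1.30 and 1.29. Both ligand genes thus stood above the untreated range, as did Pdcd1, the gene of their receptor PD-1, with a difference of 1.60. The calls on Cd274 and Pdcd1lg2 are lost after median centring (0.92 and 0.80) and when arrays were scaled to a common spread (0.45 and 0.58). Cd69, an early activation antigen, read 0.60, against 2.47, 2.67 and 2.52, and the ATMWT untreated array read 0.76. Tnfrsf13b, which encodes the survival receptor TACI, read -2.80, against -0.06, 0.11 and 0.11, a difference of -2.85.

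Many immediate early genes were high in untreated ATMKO cells and lower at 3 h. Of 32 transcription factor genes of this class measured, 15 were called lower and 1 higher, against 7.14% and 2.09% of all genes. After median centring 17 were lower and 0 higher. With the ATMWT untreated array added to the untreated group, 6 of the 15 lower calls are lost, on Atf3, Egr2, Klf10, Myc, Nr4a1 and Nr4a2. The mean level of the class was 0.30 at 3 h, against 1.03 to 1.15 on the untreated ATMKO arrays, and the untreated ATMWT array read 0.16. The median difference of the class was -0.55 at 3 h, -1.32 at 6 h and -1.11 at 24 h. The limma test passed 8 of the 15 lower calls, and did not pass the single higher call. Between the untreated and the 6 h levels lay 13 of the 32 genes (40.6%), below all 3 untreated and above both 6 h arrays, against 9.68% of all genes. That order was not particular to this class. Its share was 76.2% for erythroid and platelet markers, 60% for B cell markers and for MHC class II genes, and 50% for DNA replication genes. It was smaller in other lists, such as ERK feedback genes (31.2%) and NF-kappaB genes (13.6%).

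Fosb had the largest difference downward of all genes. It read -1.07 at 3 h, against 2.33, 2.49 and 2.61 untreated, and then -3.12 and -3.35 at 6 h and -3.56 at 24 h. Fos read -1.89 at 3 h, against 1.49, 1.64 and 1.59 untreated, an 11.1-fold lower level. At 6 h it read -3.90 and -3.77 and at 24 h -3.96, so the 3 h array lay between the untreated and the later arrays for both FOS genes. The JUN family, their dimer partners in AP-1, was less uniform. Jun read -0.32 at 3 h, against 1.5, 1.28 and 1.40 untreated, while Junb read 0.73, against 1.25, 1.10 and 1.40, and was not called. Jund read -1.33, against 1.68, 1.71 and 1.85, and unlike Fos it was higher at 6 h (-0.85 and -0.59) and 24 h (-0.33) than at 3 h.

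Nr4a1, an orphan nuclear receptor that reports antigen receptor signalling, read 2.03 at 3 h, against 3.02, 3.39 and 3.20 untreated, then -0.13 and 0.08 at 6 h and -1.95 at 24 h. Its difference of -1.18 was -0.99 against repeat 1 alone, which ends the call. Nr4a2 read 1.01, against 2.11, 2.27 and 2.20, and followed the same order of times. Nr4a3 read 1.54, against 0.40, 0.87 and 0.86, a difference of 0.83 in the other direction that was not called. Untreated ATMWT cells read 0.11 for Nr4a1, -0.15 for Nr4a2 and -0.49 for Nr4a3, below all untreated ATMKO arrays, but 2.08 for Fos, above them. The limma test, which also rests on the ATMWT samples, gave adjusted p = 0.786 for Nr4a1 and 0.0136 for Fos.

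The EGR, CREM and MAF genes did not share 1 direction. Egr1 read 1.66 at 3 h, against 0.96, 0.94 and 1.03 untreated, a difference of 0.68 short of the rule. Egr2 read -0.49, against 1.00, 1.01 and 0.94, and was above all of these at 6 h (1.82 and 1.89). Egr3 lay within the untreated range, with a difference of -0.04. Crem, a cyclic AMP responsive regulator, was the one call upward, at 2.59 against 1.46, 1.5 and 1.52. Other Crem probes differed by -0.34 to 0.79, so that call depends on the probe. Mafk had a difference of 0.96. Myc, which drives growth after activation, read 0.48 at 3 h, against 2.02, 1.94 and 1.99 untreated, and 0.44 in untreated ATMWT cells. Atf3 and Klf6 likewise differed by -1.50 and -1.40 while the untreated ATMWT array read 0.22 and 0.71.

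**Figure D4:**
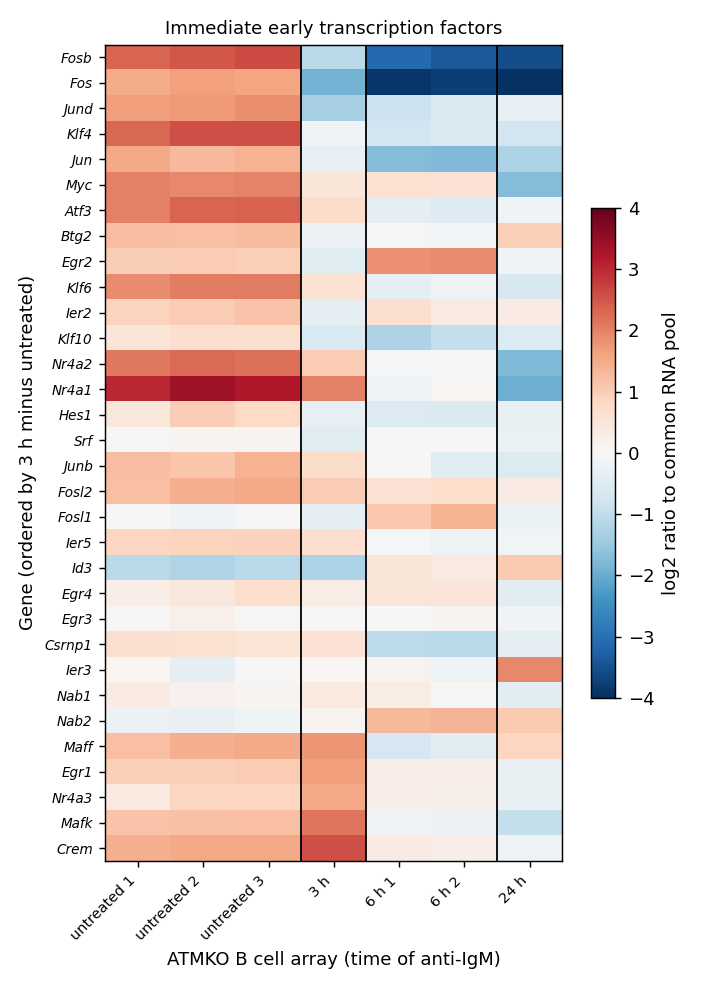
Levels (colour, log2 ratio to the common pool) of 32 immediate early transcription factor genes on each ATMKO array, ordered by the difference at 3 h. The upper rows, from Fosb to Hes1, are higher on the 3 untreated arrays than at 3 h, and the lowest row, Crem, is highest at 3 h.

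Feedback genes of ERK signalling held 5 calls. Of 16 phosphatase, Sprouty and Spred genes, 4 (25%) were lower and 1 (6.25%) higher, against 7.14% and 2.09% of all genes, and 11 were neither. The median difference was -0.66, and limma passed 2 of the 4 lower calls. Dusp1 read -0.39 at 3 h, against 1.67, 1.67 and 1.79 untreated, and Dusp6 read -1.42, against 0.97, 1.04 and 1.11. Both encode phosphatases that switch off MAP kinases. Dusp4, of the same family, was the higher one, with 0.74 against -0.48, -0.52 and -0.51.

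Genes of quiescence and of lymphocyte traffic held several of the deepest values. Klf2, which keeps lymphocytes resting and in circulation, read -1.32 at 3 h, against 1.99, 2.03 and 2.04 untreated, a difference of -3.34. It read -0.93 and -0.98 at 6 h and 1.05 at 24 h. Txnip, a brake on glucose uptake, read -1.12, against 2.07, 1.80 and 1.88, then -1.11 and -1.47 at 6 h and 0.22 at 24 h. Both were thus low at 3 and 6 h and less so at 24 h. Rhob, a small GTPase, differed by -2.91 and Ackr3, a scavenger receptor for CXCL12, by -3.11. Klf4, a relative of Klf2 with an antiproliferative role, differed by -2.66. Gm15706, Leng9, Fam43a and Serpini1 completed the 12 leading lower RefSeq genes, and the untreated values of Gm15706 were uneven, with 2.76 on repeat 1 and 1.60 and 1.5 on the others.

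Of 24 FOXO1 and quiescence genes, 3 (12.5%) were higher and 5 (20.8%) lower, against 2.09% and 7.14% of all genes. Their median was -0.18, and 2 were higher without untreated repeat 1 and 4 without repeat 3. Of 22 homing and egress receptors, 1 (4.55%) was higher and 6 (27.3%) lower, with a median of -0.55. Cxcr5, which guides B cells into follicles, read -0.60 at 3 h, against 1.13, 1.20 and 1.13 untreated. Ccr6 differed by -1.60 and Gpr183, the oxysterol receptor EBI2, by -1.51. Ccr9, a gut homing receptor, was the higher one, with 1.64 against 0.18, 0.25 and 0.27. Cxcr4 read 2.62, against 1.76, 1.91 and 1.99, a difference of 0.73 that missed the rule, and was at -0.89 and -0.98 at 6 h.

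B cell markers and MHC class II genes held only lower calls. Of 15 B cell markers 0 were higher and 6 (40%) lower, against 7.14% of all genes, with a median difference of -0.70. Ms4a1, which encodes CD20, read -1.31 at 3 h, against 0.45, 0.39 and 0.37 untreated, and Fcer2a, which encodes CD23, read -1.19, against 0.89, 0.96 and 0.87. Of 15 MHC class II genes 0 were higher and 4 (26.7%) lower, with a median of -0.76. Below all untreated arrays lay 14 (93.3%), against 47.9% of all genes. Without untreated repeat 2 or repeat 3, 3 were lower, as Ctss (-1.01) then misses the rule. H2-Ab1, a class II beta chain, read 0.45, against 1.62, 1.92 and 1.75. Of 28 B cell fate factors 1 (3.57%) was higher, Stat3, and 2 (7.14%) lower, Irf4 and Pou2af1, against 2.09% and 7.14% of all genes. The Stat3 call is lost without untreated repeat 1, where its difference was 0.98.

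Most ribosome biogenesis genes lay above untreated cells at 3 h, and 6 of them met the rule. Of 35 nucleolar genes 6 (17.1%) were called higher and 0 lower, with a median difference of 0.73, and 31 (88.6%) lay above all untreated arrays, against 30.6% of all genes. Median centring left 0 calls and a median of 0.33, which was 0.72 above the median of all genes. Polr1b, a subunit of RNA polymerase I, read 0.84 at 3 h, against -0.47, -0.67 and -0.50 untreated. Pes1, of the complex that processes large subunit rRNA, read 1.59, against 0.20, 0.58 and 0.48, and Wdr43, of the small subunit processome, read 1.10, against -0.40, -0.07 and -0.15. The 3 h array was above all untreated arrays for each. Of 27 MYC-linked growth and transport genes 2 (7.41%) were higher and 0 lower, against 2.09% and 7.14% of all genes, with a median of 0.05. These were Slc7a1, a transporter of cationic amino acids, and Ctps, which makes CTP, with differences of 1.03 and 1.04. The Ctps call is lost without repeat 1 (0.99).

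Death and survival lists held more lower than higher calls, against 7.14% and 2.09% of all genes. Of 18 BH3-only and effector genes 2 (11.1%) were higher and 5 (27.8%) lower. Pmaip1, in this list and the p53 target list, loses its lower call without untreated repeat 3 (-0.98) and against repeat 1 alone (-0.97). Bad loses its lower call with the mean of probes (-0.86). Tnfrsf10b, a death receptor for TRAIL, read 2.46 at 3 h, against 0.29, 0.44 and 0.43 untreated, and was back at 0.37 and 0.40 at 6 h. Bcl2l11, which encodes BIM, had a difference of 1.88 by its brightest probe, while another probe read -0.12. Casp9, the apoptosome caspase, read -2.43, against -0.08, -0.06 and -0.01. Of 12 anti-apoptotic relatives 0 were higher and 2 (16.7%) lower: Bcl2 differed by -1.49 and Mcl1 by -1.36. Of 24 p53 target genes 1 (4.17%) was higher, Tnfrsf10b, and 6 (25%) were lower. Cell cycle lists held few calls, all lower, against 7.14% of all genes. They were 3 of 30 DNA replication genes (10%), among them Pcna at -1.79, 3 of 25 mitosis genes (12%) and 3 of 21 cyclin, CDK and inhibitor genes (14.3%). The mitosis calls lay close to the 2-fold limit. They numbered 0 without untreated repeat 2, 1 without repeat 3, and 0 with plain background subtraction, the deposited log ratios or scaling to a common spread. That scaling also turned the mitosis median from untreated cells to 0.10, against -0.59 without it, while median centring gave 17 lower calls. The DNA replication and cyclin lists each had 2 lower calls without untreated repeat 2. Scaling left 1 lower call among DNA replication genes, with a median of -0.03, and 1 lower and 1 higher in the cyclin list. Median centring gave these lists 7 and 10 lower calls.

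Most stress, decay and late B cell lists held more lower than higher calls, against 7.14% and 2.09% of all genes. Of 23 ER chaperone genes 0 were higher and 4 (17.4%) lower, among them Hspa5, which encodes BiP, with a difference of -1.19. Of 15 heat shock genes 1 was higher and 2 lower, with 1 lower without untreated repeat 1 and 2 higher without repeat 2 or repeat 3. Hspa1a, an inducible HSP70 gene, read 1.92 at 3 h, against 0.70, 0.51 and 0.53 untreated. Of 23 ATF4 and amino acid stress genes 1 was higher and 1 lower. The higher one was Slc7a11, the cystine transporter, which was not well above background on any untreated array and was at least 2.70-fold higher at 3 h. The lower one was Psph, of serine synthesis, at -2.16. Of 16 RNA decay factors 0 were higher and 3 (18.8%) lower, and of 12 MYC network genes 0 and 1 (8.33%). Of 12 plasma cell genes 1 was higher and 2 (16.7%) lower, with 1 lower without untreated repeat 1. Of 21 germinal centre genes 0 were higher and 5 (23.8%) lower, with a median of -0.47. When arrays were scaled to a common spread, that list had 2 higher and 3 lower calls and a median of 0.18, and the median of the ATF4 list was 0.24 in place of -0.24.

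The 3 h array was then compared directly with the later times, without the untreated arrays. Against 6 h, 1071 genes (4.8%) were higher at 3 h and 1892 (8.49%) lower. Against 24 h, 1349 (6.05%) were higher and 2546 (11.4%) lower. The calls of genes higher at 3 h than in all 3 other ATMKO groups numbered 240 (1.08%), and those lower than in all 3 numbered 535 (2.4%). The first count was 62 after median centring and 529 with the deposited log ratios. Cxcl1, Amhr2, Ppp1r16b, Trim69, Chst7, Tatdn2, Cxcl2, Gzmm, Rundc3b and Tnfrsf10b were the 10 clearest of the 240, by the smallest of their 3 differences. Gzmm, a granzyme gene, read 2.25 at 3 h, against -0.18, -0.17 and -0.04 untreated.

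Sterol and interferon genes differed most between 3 and 6 h. Of 23 cholesterol synthesis genes 0 were higher and 20 lower at 3 h than at 6 h, and all 23 lay below both 6 h arrays, against 44.8% of all genes. Idi1, the isopentenyl diphosphate isomerase gene, read -3.54 at 3 h, against 0.70 and 0.82 at 6 h, while untreated cells read -2.48, -2.47 and -2.37. Its difference from untreated cells was -1.10, but 0.05 when all arrays were scaled to a common spread. Sqle, which encodes squalene epoxidase, read -2.89 at 3 h, against 0.40 and 0.39 at 6 h. The median difference of the list from untreated cells was -0.37 at 3 h, 1.89 at 6 h and 0.92 at 24 h. The direction at 3 h is uncertain, since scaling to a common spread gave a median of 0.43, with 16 of 23 genes above the untreated mean.

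Of 27 interferon-induced genes 1 was higher and 19 lower at 3 h than at 6 h. Against untreated cells 2 (7.41%) were higher, Ifit1 and Cxcl10, and 6 (22.2%) lower, against 2.09% and 7.14% of all genes. The lower calls numbered 4 without untreated repeat 2 or repeat 3. They numbered 2 when arrays were scaled to a common spread and 14 after median centring. The Ifit1 call is lost against repeat 1 alone (0.93) and after median centring (0.88). Xaf1, an inducible antagonist of the inhibitor of apoptosis XIAP, read -1.77 at 3 h, against 1.56 and 1.98 at 6 h, and untreated cells read 0.26, 0.71 and 0.61. Usp18, which dampens interferon receptor signalling, read -1.71 at 3 h, against 1.31 and 1.70 at 6 h. Mat2a, the enzyme that makes S-adenosylmethionine, read -2.31 at 3 h, against 1.01 on both 6 h arrays. Each of these 3 genes lay below every untreated array at 3 h.

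On the other side, Cxcr4, Abcg1, Cd274 and Stk38l were higher at 3 h than at 6 h by 3.55, 3.18, 3.51 and 3.48. Stk38l, a kinase gene of the Hippo-related NDR family, read 2.91 at 3 h, against -0.65 and -0.50 at 6 h. Abcg1, a cholesterol exporter, read 2.10, against -1.18 and -0.98 at 6 h, while its untreated levels were 1.67, 1.90 and 1.84.

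Glycolysis and hypoxia-response genes marked the distance to 24 h. Of 25 measured, 0 were higher and 23 lower at 3 h than at 24 h. Against untreated cells 3 (12%, against 7.14% of all genes) were called lower and 0 higher at 3 h, with a median of -0.44. Scaling to a common spread gave 0 lower and 1 higher and a median of 0.30, so the direction at 3 h is uncertain. Aldoc, a glycolytic aldolase, read -3.25 at 3 h, against 1.95 at 24 h, and Tpi1, triose phosphate isomerase, read -3.64, against 1.26. Bnip3, a mitophagy receptor induced by low oxygen, read -4.61, against 0.83 at 24 h, and its difference of -1.05 from untreated cells was 0.49 when arrays were scaled to a common spread. Nucleolar genes showed the opposite direction. Of the 35, 26 were higher and 0 lower at 3 h than at 24 h, and 0 were higher and 5 lower than at 6 h. Irs2, an insulin receptor adaptor, read 1.82 at 3 h, against -2.25 at 24 h, close to the untreated 1.73, 2.11 and 1.93. With 1 array at 3 h and 1 at 24 h on different slides, time and slide cannot be told apart in this comparison.

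**Figure D5:**
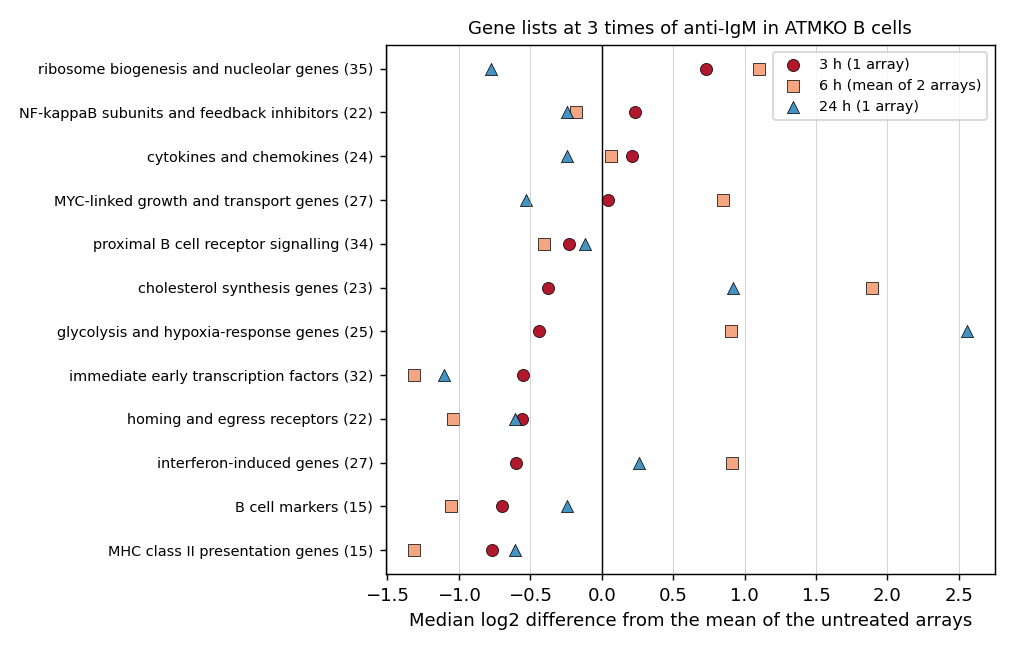
Median log2 difference from the mean of the untreated arrays for 12 gene lists (number of genes measured in brackets) at 3 h, 6 h and 24 h of anti-IgM. All 3 times share the untreated arrays. Scaling to a common spread turns the 3 h medians of cholesterol synthesis (0.43) and glycolysis (0.30) above 0. Without that scaling the 3 h medians lie between -0.76 and 0.73, while cholesterol synthesis reaches 1.89 at 6 h and glycolysis 2.56 at 24 h.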

How the data were processed

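Expression in splenic B cells was measured on 9 Agilent arrays, each with the sample in Cy5 and the pool in Cy3 per the labels. The deposited scanner files hold mean and background signals as intensity, made with Feature Extraction 10.1.1.1 per the file headers, while the submitters' processing notes name version 9.1 and limma. The authors' deposited values are log10 ratios of red over green that equalled the scanner's own ratios within 0.00050, with column medians of -0.087 to -0.028, so they are not centred. They served as an alternative.

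The intensities underwent normexp correction (offset 50) and loess normalisation within arrays in R 4.3.3 with limma 3.58.1, which gave log2 ratios from the deposited signals. Control and outlier spots had weight 0 and were then left out, and replicate spots were averaged. Probes below background in both channels on more than 0.5 of the 9 arrays were dropped. Of 55681 probes, 27235 (48.9%) took a symbol from RefSeq through their accession and the others kept the array's name. The brightest probe stood for a symbol, which left 22297 genes, 3060 of them intervals of long non-coding RNA, after 20 with a missing value were left out. On each array 54.3% to 59.9% of probes were above background in Cy5.

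Calls used a 2-fold difference and non-overlap with the repeats. The limma fit averaged technical repeats to 6 samples, with genotype and time as terms, and Benjamini-Hochberg adjustment at 0.05. Named genes were Atm and Cd3e, the 12 largest calls in each direction, the 8 largest in each direction against 6 h and against 24 h, the 10 clearest peaks, every immediate early factor measured, and called or leading members of each of 38 gene lists. Ranks were taken over genes matched to RefSeq, and some genes given by the rule are not printed. The kappaB-like motif was shortened by 1 base after a first search. The arrays, lists and tests were chosen with earlier results of these data known. Coordinates of promoters are those of GRCm38.p6. Tables and figures used data.table (version 1.17.8), statmod 1.5.0, Python 3.11.15, pandas 2.3.3, numpy 2.4.6 and matplotlib 3.10.9. On simulated data of 22297 genes for 3 h minus untreated, the fold rule called 43% of genes set at log2 1, 99% at log2 2 and 0.308% of unchanged genes. The simulation gave every array independent noise of the technical SD, with no slide effect, no extra noise at 3 h and no background filter. In the data, untreated repeats 1 and 2 were at least 2-fold apart in 385 genes. The 0.308% is therefore not a false call rate for these arrays. Alternatives were the slide, each repeat left out, background correction, normalisation, the deposited ratios, the filter, probe choice, ATMWT samples and the fold. Scaling to a common spread and the untreated median were added after seeing the data.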

Additional observations from a re-analysis of the deposited data

Results flagged for a closer look

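Several genes lay on opposite sides of the untreated arrays at 3 h and at a later time, with every array of each time on its side. The opposition was not tested, each group is 1 culture or its technical repeats, and all values below share the untreated arrays.

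Some genes called higher at 3 h were below untreated cells later, unlike the class as a whole, whose medians were 0.09 at 6 h and -0.10 at 24 h. At 6 h the differences from untreated cells were -2.26 for Cd274, -1.56 for Stk38l, -1.33 for Gzmb, -1.21 for Crem, -1.07 for Hspa1a and -1.06 for Inpp5d. At 24 h they were -2.43 for Dusp4, -1.84 for Cd274, -1.70 for Crem, -1.69 for Pdcd1lg2, -1.50 for Ccl4, -1.41 for Stk38l, -1.33 for Cxcl10, -1.26 for Ctps, -1.16 for Wdr43, -1.07 for Gzmb and -1.06 for Hspa1a. The list spans immune ligands, chemokines and growth genes. The 3 h call on Crem depends on the probe, since other probes of the gene differed by -0.34 to 0.79. When arrays were scaled to a common spread, the 3 h calls on Cd274, Crem, Gzmb, Hspa1a, Inpp5d and Pdcd1lg2 are lost, with differences of 0.29 to 0.77. Median centring also ends these calls and those on Ctps, Dusp4 and Wdr43.

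Some genes called lower at 3 h were above untreated cells later, while the medians of the class were -0.52 at 6 h and -0.08 at 24 h. At 6 h the differences were 3.20 for Idi1, 1.71 for Ifi27l2a, 1.52 for Mx1, 1.25 for Xaf1, 1.08 for Mat2a and 1.03 for Bnip3. At 24 h they were 4.40 for Bnip3, 3.46 for Slc16a3, 2.49 for Eno1, 1.70 for Ifi27l2a, 1.43 for Idi1 and 1.21 for Tm7sf2. Ifi27l2a, Mx1 and Xaf1 are interferon-induced, Idi1 and Tm7sf2 belong to cholesterol synthesis, and Bnip3, Slc16a3 and Eno1 to glycolysis and the response to low oxygen. When arrays were scaled to a common spread, the 3 h difference was 0.49 for Bnip3 and 0.05 for Idi1, so their opposition is uncertain. The 3 h calls on Eno1, Mx1, Slc16a3 and Tm7sf2 are also lost under that scaling, with differences of -0.65 to -0.08.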

How the results depend on the processing

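The 467 higher and 1591 lower genes became 142 and 4146 with median centring, 1341 and 2455 with the deposited log ratios, 1612 and 3927 at 1.5-fold, 39 and 103 at 4-fold, and 271 and 946 when arrays were scaled to a common spread, a setting added after seeing the data. Leaving out 1 untreated array gave 463 to 498 higher and 1542 to 1657 lower genes. Against 6 h, median centring gave 273 higher and 5872 lower genes, the deposited ratios 1847 and 3293, and scaling 1184 lower. Against 24 h, median centring gave 773 and 4061, the deposited ratios 2462 higher, and scaling 871 and 1672. Genes highest at 3 h numbered 62, 529 and 92 under these settings, and genes lowest at 3 h 2093, 1034 and 132. Leaving out 1 array at 6 h gave 1116 to 1129 higher and 1904 to 1946 lower genes against 6 h, 238 to 243 highest and 531 to 546 lowest at 3 h. The cause of these shifts was not tested. Limma called 4141 genes, 779 with plain background subtraction, 0 with the deposited ratios (smallest adjusted p = 0.0600), 7771 over 9 arrays and 9557 with slide as a random block. Both fits over 9 arrays took technical repeats as replicates. Their spread is therefore technical, and their larger counts are not stronger evidence. A limma fit within the slide of the 3 h array was not run, since its 3 splenic B cell arrays come from 3 groups. Scaling to a common spread turned the sign of Bnip3 (0.49), Gcsam (0.18) and Idi1 (0.049). Of 2210 values of the 170 named called genes under 13 alternatives, 2207 kept their sign. The named calls lost numbered 128 at 4-fold, 51 under scaling, 26 within the slide, 25 with ATMKO and ATMWT untreated together, 24 with median centring, 22 with the deposited ratios and 16 with the mean of probes. They numbered 9, 14 and 10 without untreated repeats 1, 2 and 3, and 4 to 7 with plain subtraction, no background correction or the untreated median. No paired analysis was possible because the 3 h group is 1 array with no repeat number, so the groups share fewer than 2 numbers. Probes that were dim at 3 h limit 52 of the lower calls to bounds.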
